A study of Sus scrofa with 10 samples.

Results

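Ribosome biogenesis and nucleolar genes encode the factors that transcribe, modify, cut and fold ribosomal RNA and assemble it into subunits. A list of 50 such genes was matched by gene symbol to a deposited table of 31905 pig genes, and 45 were found. Where a symbol had several rows, the row with the highest mean was kept. All 45 passed the filter of at least 1 FPKM in at least 2 libraries, as did 12180 genes in all, and 44 of the 45 reached 1 FPKM in every library. The exception was UTP20, which lay between 0.622 and 1.83 FPKM. NOP16, LTV1, BOP1, NHP2 and DDX10 were not matched by symbol.

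The values come from RNA sequencing of wild-type pig liver in 10 libraries. hiHepD8 (2 libraries, day 8) and hiHepD4 (1 library, day 4) are livers after hepatectomy-induced failure treated with a bioartificial liver, a blood circuit outside the body, filled with human induced hepatocytes. EmptyBAL (2 libraries, day 3) had the same circuit without cells, NoBAL (2 libraries, day 2) had liver failure and no circuit, and Control (3 libraries, day 0) was normal liver. The study set NoBAL against Control to find genes of liver failure, the hiHep groups against NoBAL to find those that reverted, and EmptyBAL to account for the circuit's contact with blood. Each group was sampled on 1 day only, so treatment and day cannot be told apart, and the labels do not say which libraries came from separate animals. Hepatocyte is the labelled cell type, yet the RNA was extracted from liver and no cell isolation is described.

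Ribosome assembly begins in the nucleolus, where RNA polymerase I transcribes a long precursor RNA. Small nucleolar ribonucleoproteins of the box C/D class methylate that precursor and those of the box H/ACA class convert uridine to pseudouridine. The small subunit processome then shapes the future 40S subunit, and a separate set of factors builds the 60S subunit. In liver the programme is known to be raised when hepatocytes leave quiescence and grow after loss of tissue.

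Libraries differed in how closely replicates matched. Across genes, which are not independent replicates, Pearson's r of log2(FPKM + 1) was 0.992 between the hiHepD8 libraries, 0.893 between the EmptyBAL libraries, 0.956 between the NoBAL libraries and 0.992 to 0.994 among the Control libraries. EmptyBAL replicate 1 stood apart in hepatocyte genes. HNF4A, a hepatocyte transcription factor, was at 3.15 FPKM there and at 46.5 FPKM in EmptyBAL replicate 2, while CPS1, a urea cycle enzyme, was at 1.60 and 105 FPKM in the same libraries. Summed FPKM also differed, from 439925 in EmptyBAL replicate 2 to 829970 in Control replicate 1, so results that turn on scaling are given under several scalings. The depth of the libraries is unknown. In bulk tissue, fewer cells of a type and less RNA per cell cannot be told apart.

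The summed level of the 45 genes was highest in NoBAL. It came to 603 and 605 FPKM in the hiHepD8 libraries, 875 FPKM in hiHepD4, 1023 and 1216 FPKM in EmptyBAL, 2172 and 2109 FPKM in NoBAL, and 709.6, 747 and 730.0 FPKM in Control. As a share of each library's summed FPKM the genes held 0.107% and 0.110% in hiHepD8, 0.107% in hiHepD4, 0.206% and 0.276% in EmptyBAL, 0.275% and 0.400% in NoBAL, and 0.0855%, 0.0907% and 0.0880% in Control. On the FPKM scale hiHepD8 lay below Control, and on the share scale hiHepD8 lay above it. NoBAL had the highest group mean for 43 of 45 genes, the exceptions being RRP1B, highest in EmptyBAL, and IMP3, highest in Control. hiHepD8 had the lowest group mean for 30 genes, Control for 10 and EmptyBAL for 5. The counts of group means used FPKM as deposited and were not made over all genes. Nothing particular to the set is read from them.

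**Figure D1:**
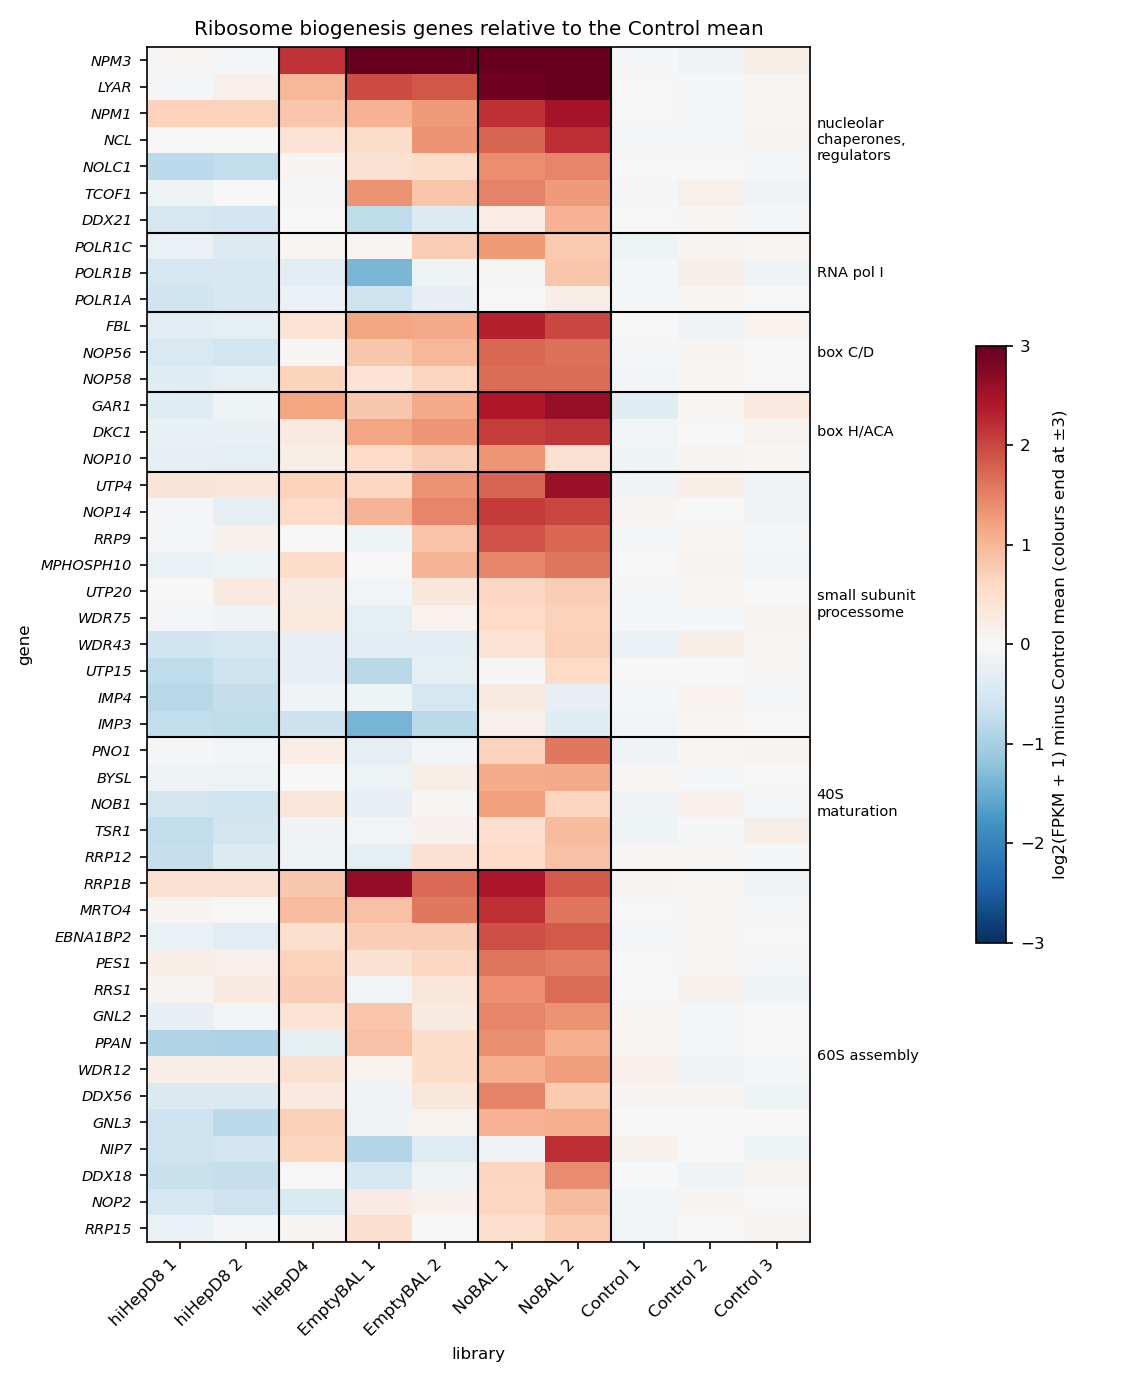
Difference of log2(FPKM + 1) from the Control mean for each of the 45 genes (rows, grouped by role) in each of the 10 libraries (columns), with colours ending at 3 in either direction. The NoBAL columns are the reddest for most rows, the hiHepD8 columns are pale or blue for most rows and red for NPM1 (as deposited; their median turns positive with equal sums), and the 3 Control columns are close to 0.

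FPKM of nearly the whole set were higher in the NoBAL libraries than in the Control libraries. Of 45 genes, 38 were called, all of them higher in NoBAL, at a Benjamini-Hochberg adjusted p under 0.05 in limma, against 25.2% of the 12180 tested genes called higher and 24.2% called lower, 49.4% in all. The median log2 change of the 45 genes was 1.17, beside 0.04 over all genes tested. The libraries of 40 genes did not overlap and were higher in NoBAL, against 38.2% of all genes. IMP3, IMP4, POLR1A, POLR1B and NIP7 were the 5 that overlapped. With every library left out in turn, 32 of the 38 were called each time. With the 3 Control libraries and the 2 hiHepD8 libraries each averaged to 1, the median was 1.17 and far fewer genes were called, as given below. Averaging allows for replicates of 1 animal in Control and hiHepD8. It does not do so in NoBAL or EmptyBAL, whose libraries stayed separate.

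FPKM of the set were lower in the hiHepD8 libraries than in the NoBAL libraries. Of the 45 genes, 42 were called, all lower in hiHepD8, against 24.8% of all genes called lower and 22.5% called higher, 47.3% in all. The median log2 change was -1.57, beside -0.03 over all genes. The libraries of all 45 genes did not overlap and were lower in hiHepD8, against 41% of all genes lower and 38.6% higher. NIP7, POLR1B and IMP3 were not called. With the Control and hiHepD8 libraries each averaged to 1, 3 genes were called and 33 passed an unadjusted p of 0.05. This comparison and that of NoBAL with Control share the NoBAL libraries.

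**Figure D2:**
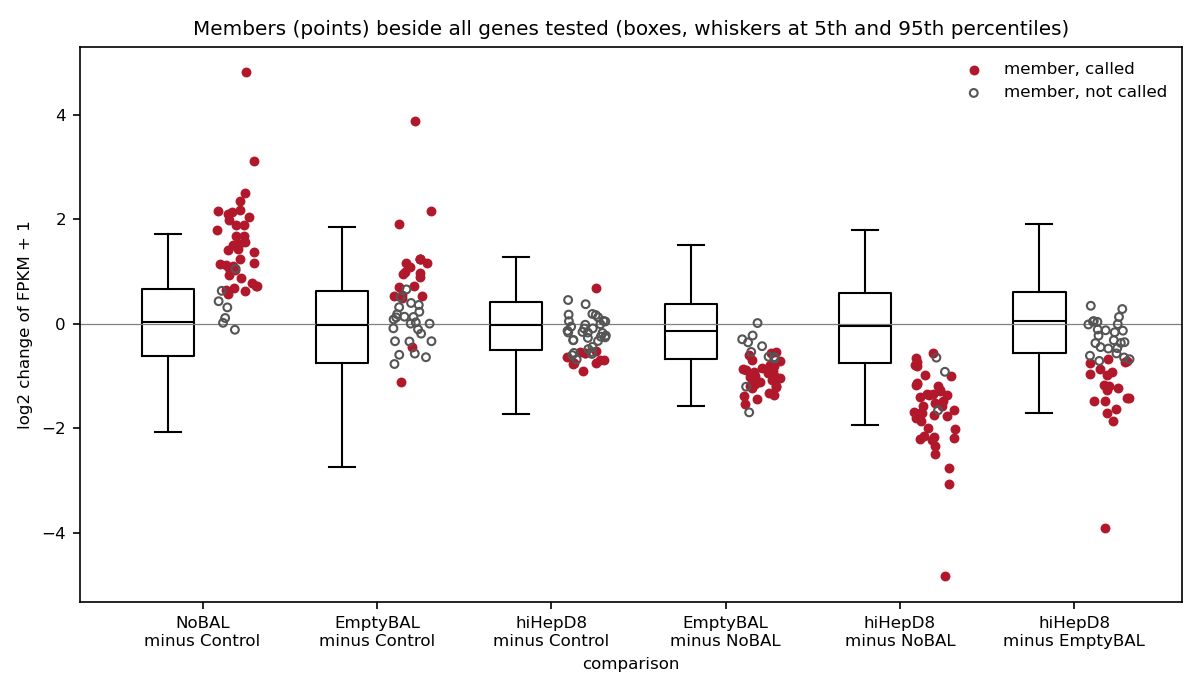
Log2 change of FPKM + 1 for each of the 45 genes (points, filled where the adjusted p was under 0.05) beside all 12180 genes tested (boxes from the lower to the upper quartile, with whiskers at the 5th and 95th percentiles), for 6 comparisons. The points lie mostly above the box for NoBAL minus Control and mostly below it for hiHepD8 minus NoBAL, with NPM3 the extreme point in both.

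Among nucleolar chaperones, organisers and regulators, 6 of 7 genes were called higher in NoBAL than in Control, with a median log2 change of 1.99. NPM3, a histone chaperone of the nucleoplasmin family, moved the most of the 45. It was at 2.30 and 2.10 FPKM in hiHepD8, 13.5 FPKM in hiHepD4, 35.4 and 61.4 FPKM in EmptyBAL, 93.1 and 87.1 FPKM in NoBAL, and 2.09, 2.00 and 2.64 FPKM in Control. The NoBAL libraries were the highest and the hiHepD8 libraries lay within the Control range. NPM3 rose in NoBAL against Control by a log2 change of 4.82 ± 0.23 (SE; limma adjusted p = 7.8e-06) and fell in hiHepD8 against NoBAL (-4.83 ± 0.25, limma adjusted p = 2.4e-05). NPM3 lies on chromosome 14 from 112819390 to 112822244 in Sscrofa11.1, and NOLC1 follows on the same chromosome from 113154619 to 113166922.

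LYAR, a nucleolar regulator of cell growth, was at 2.67 and 3.18 FPKM in hiHepD8, 6.51 FPKM in hiHepD4, 13.7 and 12.6 FPKM in EmptyBAL, 27.4 and 36.7 FPKM in NoBAL, and 2.73, 2.63 and 2.93 FPKM in Control. Again hiHepD8 overlapped Control, and EmptyBAL lay between NoBAL and Control. Its log2 change was 3.12 ± 0.16 in NoBAL against Control (limma adjusted p = 1.1e-05) and -3.06 ± 0.18 in hiHepD8 against NoBAL (limma adjusted p = 3.3e-05). NCL, nucleolin, an abundant RNA-binding protein of the nucleolus, was at 58.6 and 59.3 FPKM in hiHepD8, 79.9 FPKM in hiHepD4, 87.5 and 151 FPKM in EmptyBAL, 202 and 279 FPKM in NoBAL, and 57.6, 57.7 and 62.5 FPKM in Control. The hiHepD8 values of NCL lay inside the Control range, and the log2 change in NoBAL against Control was 1.99 ± 0.26 (limma adjusted p = 0.00063).

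NPM1, nucleophosmin, is a chaperone that shuttles ribosomal particles. Its level was 88.3 and 87.6 FPKM in hiHepD8, 97.4 FPKM in hiHepD4, 112 and 133 FPKM in EmptyBAL, 250 and 310 FPKM in NoBAL, and 53.2, 52.8 and 56.1 FPKM in Control. Both hiHepD8 libraries stood above all 3 Control libraries and below both NoBAL libraries. The hiHepD8 libraries stood above all Control libraries for 5 of the 45 genes, against 38.7% of all genes. NPM1 was the only one of the 45 called higher in hiHepD8 than in Control (log2 change 0.69 ± 0.18, limma adjusted p = 0.022), and it was called under all 3 other scalings. The call was lost when any 1 hiHepD8 or Control library was left out. An annotated long noncoding RNA overlaps it.

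NOLC1, a scaffold between snoRNPs and polymerase I, was at 6.98 and 7.23 FPKM in hiHepD8, 13.4 FPKM in hiHepD4, 17.7 and 19.0 FPKM in EmptyBAL, 34.8 and 36.6 FPKM in NoBAL, and 12.8, 12.8 and 12.4 FPKM in Control. It fell below Control in hiHepD8 (log2 change -0.75 ± 0.13, limma adjusted p = 0.004), with no overlap between the libraries, a call lost when each library was scaled to the same sum (-0.24) and without hiHepD8 replicate 1. DDX21, a helicase that joins polymerase I transcription to processing, was the 1 gene of this role not called in NoBAL against Control. It was at 6.65 and 6.24 FPKM in hiHepD8, 9.90 FPKM in hiHepD4, 5.32 and 7.12 FPKM in EmptyBAL, 11.7 and 21.1 FPKM in NoBAL, and 9.79, 10.1 and 9.45 FPKM in Control. The NoBAL libraries of DDX21 lay above Control but differed widely from each other (log2 change 0.63 ± 0.24, limma adjusted p = 0.060).

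Of the 3 RNA polymerase I subunits, 1 was called higher in NoBAL than in Control, against 25.2% of all genes, with a median log2 change of 0.43. In hiHepD8 against NoBAL 2, POLR1A and POLR1C, were called lower, against 24.8% of all genes, with a median of -0.92. With 3 genes, nothing particular to this role is read from these counts. POLR1C, a subunit shared with RNA polymerase III, was called higher in NoBAL than in Control (log2 change 1.03 ± 0.25, limma adjusted p = 0.011). It was at 35.9 and 24.9 FPKM in NoBAL against 12.6, 15.2 and 14.8 FPKM in Control. The POLR1C call did not hold each time libraries were left out in turn, and XPO5 overlaps POLR1C in the annotation. POLR1A, the largest catalytic subunit, was at 4.21 and 4.62 FPKM in hiHepD8, 5.98 FPKM in hiHepD4, 4.10 and 5.66 FPKM in EmptyBAL, 7.02 and 8.11 FPKM in NoBAL, and 6.70, 7.22 and 6.79 FPKM in Control. NoBAL overlapped Control for POLR1A (0.11 ± 0.16, limma adjusted p = 0.58), while hiHepD8 lay below it (-0.55 ± 0.16, limma adjusted p = 0.034). That call was lost under upper-quartile scaling, under equal sums and when any 1 hiHepD8 or Control library was left out. POLR1B, the second catalytic subunit, was at 3.79 and 3.86 FPKM in hiHepD8, 4.38 FPKM in hiHepD4, 1.59 and 5.05 FPKM in EmptyBAL, 5.94 and 10.9 FPKM in NoBAL, and 5.50, 6.63 and 5.18 FPKM in Control. Its EmptyBAL libraries were 3.17-fold apart, the widest gap among the 45 genes in that group, and it was called in none of the 6 comparisons.

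All 3 box C/D proteins were called higher in NoBAL than in Control and lower in hiHepD8 than in NoBAL. FBL, fibrillarin, the methyltransferase of these particles, was at 36.2 and 38.1 FPKM in hiHepD8, 61.4 FPKM in hiHepD4, 107 and 102 FPKM in EmptyBAL, 239 and 188 FPKM in NoBAL, and 46.7, 42.9 and 49.7 FPKM in Control. The groups of FBL did not overlap, with NoBAL highest and hiHepD8 lowest. Its log2 change was 2.17 ± 0.18 in NoBAL against Control (limma adjusted p = 7.1e-05) and -2.48 ± 0.19 in hiHepD8 against NoBAL (limma adjusted p = 8.2e-05).

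NOP56, a core scaffold protein of the same particles, was at 22.1 and 20.3 FPKM in hiHepD8, 31.6 FPKM in hiHepD4, 54.3 and 62.4 FPKM in EmptyBAL, 104 and 98.5 FPKM in NoBAL, and 29.4, 32.5 and 30.2 FPKM in Control. It was called lower in hiHepD8 than in Control (log2 change -0.52 ± 0.15, limma adjusted p = 0.037), but the sign turned, to 0.04, when each library was scaled to the same sum. NOP58, the partner scaffold, rose by 1.68 ± 0.14 in NoBAL against Control (limma adjusted p = 8.8e-05).

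All 3 box H/ACA proteins found were likewise called higher in NoBAL than in Control, with a median log2 change of 2.10. DKC1, dyskerin, the pseudouridine synthase, was at 11.0 and 11.0 FPKM in hiHepD8, 15.9 FPKM in hiHepD4, 30.7 and 33.8 FPKM in EmptyBAL, 57.6 and 60.8 FPKM in NoBAL, and 12.3, 12.8 and 13.96 FPKM in Control. Every group of DKC1 was separate from the others, in the order NoBAL, EmptyBAL, hiHepD4, Control, hiHepD8. GAR1, a core protein of the particle, was at 1.62 and 2.05 FPKM in hiHepD8, 6.55 FPKM in hiHepD4, 4.88 and 6.32 FPKM in EmptyBAL, 16.6 and 19.5 FPKM in NoBAL, and 1.61, 2.47 and 3.12 FPKM in Control. The hiHepD4 library lay just above EmptyBAL for GAR1, and hiHepD8 overlapped Control.

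DKC1 rose by a log2 change of 2.10 ± 0.14 in NoBAL against Control (limma adjusted p = 3.3e-05) and fell in hiHepD8 against NoBAL (-2.33 ± 0.15, limma adjusted p = 5e-05). For GAR1 the values were 2.50 ± 0.22 (limma adjusted p = 0.0001) and -2.75 ± 0.24 (limma adjusted p = 0.00013). NOP10, the smallest protein of the particle, reached 107 and 58.0 FPKM in NoBAL, against 38.9, 45.1 and 43.3 FPKM in Control (0.88 ± 0.26, limma adjusted p = 0.023). The NOP10 call did not hold each time libraries were left out in turn.

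**Figure D3:**
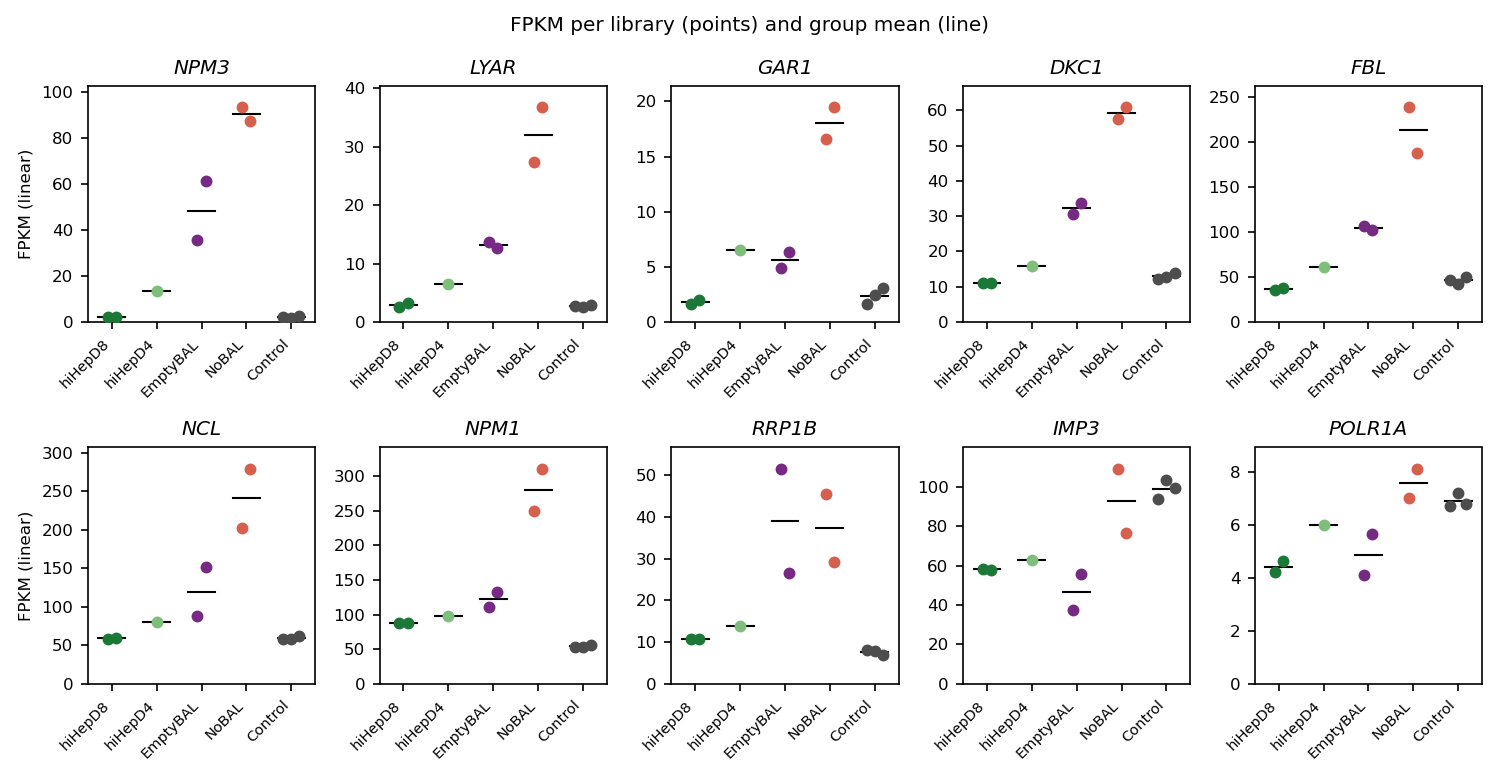
FPKM (linear axis from 0) of 10 genes in each library (points) with the group mean (line), for hiHepD8, hiHepD4, EmptyBAL, NoBAL and Control. NPM3, LYAR, GAR1, DKC1, FBL, NCL and NPM1 peak in NoBAL, the RRP1B libraries of EmptyBAL reach as high as those of NoBAL, and IMP3 and POLR1A in NoBAL overlap Control.

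Of the 10 small subunit processome proteins, 7 were called higher in NoBAL than in Control, with a median log2 change of 0.66. NOP14, a processome assembly factor, was at 6.89 and 5.74 FPKM in hiHepD8, 11.14 FPKM in hiHepD4, 15.8 and 21.6 FPKM in EmptyBAL, 34.4 and 31.7 FPKM in NoBAL, and 7.76, 7.32 and 6.62 FPKM in Control. hiHepD8 overlapped Control and EmptyBAL lay between NoBAL and Control (NoBAL against Control 2.05 ± 0.18, limma adjusted p = 9.4e-05). UTP4, a WD-repeat protein of an early processome module, was at 6.17 and 6.04 FPKM in hiHepD8, 7.77 FPKM in hiHepD4, 7.43 and 12.9 FPKM in EmptyBAL, 17.5 and 32.1 FPKM in NoBAL, and 4.07, 5.30 and 4.12 FPKM in Control. Its NoBAL libraries differed widely but both lay above every other library (2.18 ± 0.30, limma adjusted p = 0.00075). GRK4 overlaps NOP14 and CHTF8 overlaps UTP4 in the annotation. The labels do not say whether strand was kept, so reads of overlapping genes may be shared, as for 15 of the 45 genes.

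IMP3, IMP4 and UTP15 were the 3 processome genes not called. IMP3 and IMP4 are partners of MPHOSPH10 on the U3 small nucleolar RNA. IMP3 was at 58.4 and 57.9 FPKM in hiHepD8, 62.7 FPKM in hiHepD4, 37.2 and 55.6 FPKM in EmptyBAL, 109 and 76.6 FPKM in NoBAL, and 93.7, 104 and 99.4 FPKM in Control. The NoBAL libraries of IMP3 lay on either side of Control, whereas every hiHepD8, hiHepD4 and EmptyBAL library lay below Control.

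IMP4 was at 20.0 and 21.95 FPKM in hiHepD8, 33.8 FPKM in hiHepD4, 33.5 and 24.9 FPKM in EmptyBAL, 44.6 and 30.9 FPKM in NoBAL, and 35.4, 39.2 and 35.2 FPKM in Control. UTP15, a WD-repeat protein of the same early module as UTP4, was at 1.43 and 1.66 FPKM in hiHepD8, 2.43 FPKM in hiHepD4, 1.29 and 2.34 FPKM in EmptyBAL, 3.20 and 5.201 FPKM in NoBAL, and 3.03, 3.09 and 3.17 FPKM in Control. For both genes hiHepD8 lay below Control without overlap. MPHOSPH10, their partner, was called higher in NoBAL (1.53 ± 0.27, limma adjusted p = 0.0024), at 13.2 and 14.4 FPKM against 4.13, 4.37 and 3.83 FPKM in Control.

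All 5 genes of 40S maturation and export were called higher in NoBAL than in Control, with a median log2 change of 0.93. BYSL, bystin, was at 14.4 and 14.3 FPKM in hiHepD8, 15.9 FPKM in hiHepD4, 14.3 and 18.1 FPKM in EmptyBAL, 35.6 and 36.2 FPKM in NoBAL, and 16.3, 15.8 and 16.0 FPKM in Control. The NoBAL libraries of BYSL stood alone, with every library of hiHepD8, hiHepD4 and EmptyBAL between 14.3 and 18.1 FPKM (1.12 ± 0.15, limma adjusted p = 0.00069). NOB1, the nuclease that makes the last cut of the small subunit RNA, reached 96.2 and 63.1 FPKM in NoBAL, against 37.4, 44.9 and 39.1 FPKM in Control (0.93 ± 0.22, limma adjusted p = 0.0091). In EmptyBAL against Control the median log2 change of these 5 genes was 0.01, and limma called 0 of 5, with 0 also at an unadjusted p under 0.05. Scaling each library to the same sum turned NOB1 in that comparison to 0.71, from the lower to the higher side.

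For 60S assembly, 13 of 14 genes were called higher in NoBAL than in Control, with a median log2 change of 1.21. EBNA1BP2, a factor of early large subunit assembly, was at 4.40 and 3.92 FPKM in hiHepD8, 7.59 FPKM in hiHepD4, 9.22 and 9.19 FPKM in EmptyBAL, 22.5 and 21.0 FPKM in NoBAL, and 4.99, 5.35 and 5.13 FPKM in Control. Its groups did not overlap (NoBAL against Control 1.89 ± 0.13, limma adjusted p = 3.5e-05). PPAN, the homologue of yeast SSF1, was at 16.8 and 16.6 FPKM in hiHepD8, 26.5 FPKM in hiHepD4, 60.1 and 47.6 FPKM in EmptyBAL, 87.1 and 69.7 FPKM in NoBAL, and 33.5, 31.6 and 31.8 FPKM in Control. The hiHepD8 libraries of PPAN lay below Control (-0.91 ± 0.17, limma adjusted p = 0.0062), a call lost under equal sums (-0.36) and when either hiHepD8 library was left out.

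RRP1B, a nucleolar protein related to yeast RRP1, was the 60S gene with its highest mean in EmptyBAL. It was at 10.6 and 10.8 FPKM in hiHepD8, 13.8 FPKM in hiHepD4, 51.6 and 26.6 FPKM in EmptyBAL, 45.7 and 29.3 FPKM in NoBAL, and 7.97, 7.74 and 6.88 FPKM in Control. EmptyBAL and NoBAL overlapped, and their difference was 0.02 ± 0.32 (limma adjusted p = 0.97). NIP7, a factor of late pre-60S particles, was the 1 gene of this role not called. It was at 2.00 and 2.11 FPKM in hiHepD8, 6.23 FPKM in hiHepD4, 1.51 and 2.52 FPKM in EmptyBAL, 3.29 and 20.5 FPKM in NoBAL, and 4.05, 3.62 and 3.22 FPKM in Control. The NoBAL libraries of NIP7 were 6.23-fold apart, the widest gap of any of the 45 genes within a group. NOB1, NIP7 and UTP4 lie in that order on chromosome 6, starting at 17233863, 17642092 and 17784908.

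EmptyBAL libraries differed from Control libraries in part of the set. Limma called 19 genes higher and 2 lower, IMP3 and POLR1A, against 24.4% and 29.3% of all genes, 53.7% in all. The libraries of 21 genes did not overlap and were higher in EmptyBAL, and those of 9 were lower, against 34.2% and 38.5% of all genes. The median log2 change was 0.36, beside -0.03 over all genes. The genes called higher were 6 of 7 chaperones and regulators, all 3 box C/D proteins, 2 of 3 box H/ACA proteins, 2 of 10 processome proteins and 6 of 14 genes of 60S assembly. The share differed between roles, but that difference was not tested. Scaling to equal sums gave 31 genes higher and 0 lower by limma, and turned POLR1A to 0.28.

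Against NoBAL, EmptyBAL was lower. As deposited, 34 genes were called, all lower in EmptyBAL, against 21.4% of all genes called lower and 12.6% called higher. The libraries of 41 genes did not overlap and were lower, against 36.4% of all genes. The median log2 change was -0.93, beside -0.14 over all genes. These calls depended on scaling: 29 held under median-of-ratios scaling, 5 under upper-quartile scaling and 2 when each library was scaled to the same sum. The median of the 45 genes minus the median of all genes was -0.79 as deposited and -0.72 to -0.78 under the other scalings. In a fit of these 2 groups alone, limma called 0 of 45, and 16 were lower at an unadjusted p under 0.05.

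hiHepD8 was lower than EmptyBAL for 20 genes, the only calls made, against 17.6% of all genes called lower and 22.6% called higher, 40.2% in all. The libraries of 32 genes did not overlap and were lower in hiHepD8, and those of 2 were higher, against 32.8% and 38.7% of all genes. The median log2 change was -0.64, beside 0.05 over all genes. NPM3 (-3.90 ± 0.25, limma adjusted p = 7e-05), LYAR (-1.85 ± 0.18, limma adjusted p = 0.00031), RRP1B (-1.70 ± 0.32, limma adjusted p = 0.005) and PPAN (-1.62 ± 0.19, limma adjusted p = 0.00069) fell the most. The 20 were 5 of 7 chaperones and regulators, all 6 snoRNP proteins, NOP14, TSR1 and 7 of 14 genes of 60S assembly. Without hiHepD8 replicate 1, 12 genes were called, and without hiHepD8 replicate 2, 13. The fit of these 2 groups alone called 11, and with Control and hiHepD8 each averaged to 1 library limma called 0, with 11 lower at an unadjusted p under 0.05.

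Between hiHepD8 and Control, 11 genes were called lower and NPM1 higher, against 17.1% and 15.1% of all genes. The libraries of 28 genes did not overlap and were lower in hiHepD8, and those of 5 were higher, against 41.3% and 38.7% of all genes. The median log2 change was -0.26, beside -0.02 over all genes, and it turned to 0.25 when each library was scaled to the same sum, beside 0.46 over all genes. The 11 were PPAN, IMP4, IMP3, NOLC1, GNL3, UTP15, TSR1, NOP2, WDR43, POLR1A and NOP56. Under upper-quartile scaling 1 gene was called higher and 4 lower, and under equal sums 3 were called, all higher. The count fell to 0 without hiHepD8 replicate 1 (1 higher and 6 lower at an unadjusted p under 0.05), 1 without hiHepD8 replicate 2, and 4, 3 and 3 without Control replicates 1, 2 and 3. In a fit of these 2 groups alone 29 were called. The share of the 45 called lower was not far from that of all genes, and nothing particular to the set is read from it.

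**Figure D4:**
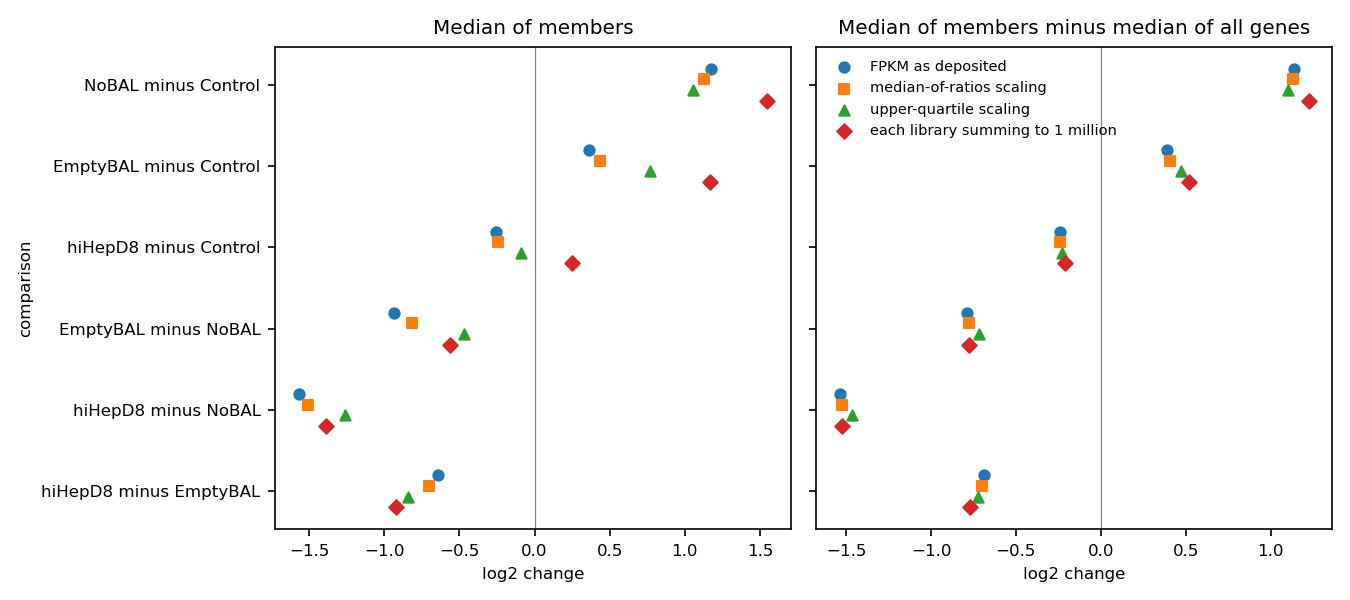
Median log2 change of the 45 genes (left) and the same minus the median of all genes (right) for 6 comparisons (rows), with FPKM as deposited and under 3 other scalings. On the left the hiHepD8 minus Control median changes sign, from -0.26 as deposited to 0.25 with every library scaled to the same sum, and on the right every comparison keeps its sign, with hiHepD8 minus Control between -0.24 and -0.21.

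hiHepD4 is a single library, so its differences have no replicate check. A difference of at least 2-fold on the log2(FPKM + 1) scale was used to describe it. Against NoBAL 21 of 45 genes were lower past that size and 0 higher, beside 7.56% and 7.6% of all genes. Against Control 2 were higher, NPM3 and GAR1, beside 8.19% of all genes. Against EmptyBAL NIP7 was higher and NPM3, RRP1B and TCOF1 were lower, beside 16.5% and 13.4% of all genes, a count of 4 that became 19 when each library was scaled to the same sum. hiHepD8 was lower than hiHepD4 for 4 genes, NPM3, GAR1, GNL3 and NIP7, beside 12.3% of all genes. As deposited, the counts given here other than those against NoBAL were below the shares of all genes. Nothing particular to the set is read from those counts.

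In level, hiHepD4 lay between the NoBAL and hiHepD8 means for 44 of 45 genes. RRP9, a U3 particle protein, was the exception, at 18.9 and 21.2 FPKM in hiHepD8, 19.3 FPKM in hiHepD4, and 73.8 and 65.3 FPKM in NoBAL. hiHepD4 was above both hiHepD8 libraries for 43 genes and below both NoBAL libraries for 43. It was above all 3 Control libraries for 28 genes and below all 3 for 9. None of these counts was made over all genes, so nothing particular to the set is read from them. GNL3, nucleostemin, a nucleolar GTPase of proliferating cells, was at 10.6 and 9.41 FPKM in hiHepD8, 28.1 FPKM in hiHepD4, 15.7 and 18.2 FPKM in EmptyBAL, 36.0 and 37.0 FPKM in NoBAL, and 16.6, 17.1 and 16.7 FPKM in Control. The hiHepD4 value of GNL3 stood above EmptyBAL and Control, and the hiHepD8 values were the lowest.

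Replicates were not equally close for these genes. The median ratio of the highest to the lowest library was 1.07 in hiHepD8, 1.37 in EmptyBAL, 1.25 in NoBAL and 1.14 in Control. EmptyBAL replicate 1 was below EmptyBAL replicate 2 for 35 of 45 genes, a count that was not made over all genes.

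BOP1 and LTV1, whose rows carry no symbol, were found by gene identifier and stand outside the 45. BOP1, a partner of PES1 and WDR12 in 60S assembly, was at 20.7 and 21.3 FPKM in hiHepD8, 32.5 FPKM in hiHepD4, 50.6 and 33.6 FPKM in EmptyBAL, 66.1 and 52.0 FPKM in NoBAL, and 14.3, 16.0 and 13.9999 FPKM in Control. Its NoBAL libraries were the highest and those of Control the lowest. LTV1, a 40S export factor, was at 0.957 and 1.11 FPKM in hiHepD8, 2.30 FPKM in hiHepD4, 2.31 and 2.93 FPKM in EmptyBAL, 5.68 and 6.12 FPKM in NoBAL, and 1.41, 1.36 and 1.11 FPKM in Control. Both rose in NoBAL against Control, by 1.92 ± 0.21 for BOP1 (limma adjusted p = 0.00027) and 1.59 ± 0.14 for LTV1 (limma adjusted p = 9.5e-05).

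The 127 other genes tested for the pathway included 9 transcription factors of growth, given below. Of the 127, 85 were called higher and 7 lower in NoBAL than in Control, against 25.2% and 24.2% of all genes. Their median log2 change was 0.91. In hiHepD8 against NoBAL, 87 of the 127 were called lower and 4 higher, against 24.8% and 22.5% of all genes, with a median of -0.94. By list, the genes called higher in NoBAL were 24 of 33 further processome genes, 29 of 42 of 60S assembly and 10 of 12 of the RNA exosome. They were also 8 of 10 snoRNP assembly factors, 5 of 8 of 40S maturation and 7 of 13 polymerase I subunits and factors. The 9 transcription factors gave 2 of the 85 called higher in NoBAL and 5 of the 7 called lower. EMG1, a methyltransferase of the small subunit RNA, was at 13.97 and 12.6 FPKM in hiHepD8, 25.2 FPKM in hiHepD4, 24.7 and 46.4 FPKM in EmptyBAL, 101 and 82.5 FPKM in NoBAL, and 11.0, 13.1 and 14.8 FPKM in Control. It followed the order of the main set (NoBAL against Control 2.73 ± 0.27, limma adjusted p = 0.00017).

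RCL1, a processome protein of the cyclase family, moved the other way. It was at 212 and 212 FPKM in hiHepD8, 69.4 FPKM in hiHepD4, 7.90 and 20.4 FPKM in EmptyBAL, 32.5 and 35.3 FPKM in NoBAL, and 185, 188 and 179 FPKM in Control. hiHepD8 and Control were both far above every NoBAL and EmptyBAL library. RCL1 fell in NoBAL against Control (-2.41 ± 0.33, limma adjusted p = 0.00077) and rose in hiHepD8 against NoBAL (2.61 ± 0.36, limma adjusted p = 0.00096). Hepatocyte markers, given below, also fell in NoBAL against Control and rose in hiHepD8 against NoBAL. Of the 8, 5 were called lower in the first and 2 higher in the second, against 24.2% and 22.5% of all genes. Their sum in hiHepD8 stayed below Control, whereas RCL1 in hiHepD8 lay above Control. The part of these markers in the RCL1 result was not tested.

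Of 9 tested transcription factors of growth, 2 were called higher and 5 lower in NoBAL than in Control, against 25.2% and 24.2% of all genes. E2F1 and E2F4 were the 2 higher, and MYC, MYCL and MNT were among the 5 lower. The list was not split into activators and repressors, so the counts do not describe growth activators as a group. MYC, known as an activator of ribosome biogenesis genes, was at 56.5 and 56.6 FPKM in hiHepD8, 126 FPKM in hiHepD4, 30.2 and 52.9 FPKM in EmptyBAL, 94.3 and 118 FPKM in NoBAL, and 391, 391 and 395 FPKM in Control. Every library of the other groups was below every Control library. In NoBAL against Control MYC changed by -1.88 ± 0.25 (limma adjusted p = 0.00068), opposite in direction to most of the 45 genes. Against NoBAL, as deposited, MYC was lower in hiHepD8 (-0.89 ± 0.28, limma adjusted p = 0.031) and in EmptyBAL (-1.38 ± 0.28, limma adjusted p = 0.011). In those 2 comparisons most of the 45 genes were lower too. E2F1, a cell cycle transcription factor, was at 0.194 and 0.388 FPKM in hiHepD8, 5.22 FPKM in hiHepD4, 23.5 and 14.4 FPKM in EmptyBAL, 12.9 and 14.8 FPKM in NoBAL, and 1.05, 0.588 and 1.21 FPKM in Control. E2F1 was highest in EmptyBAL and NoBAL and lowest in hiHepD8 (NoBAL against Control 2.94 ± 0.24, limma adjusted p = 6.9e-05).

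Markers of dividing cells moved with the set. The summed FPKM of the 6 of 8 listed genes that were found was 7.41 and 6.53 in hiHepD8, 131 in hiHepD4, 148 and 161 in EmptyBAL, 346 and 244 in NoBAL, and 5.15, 5.70 and 5.61 in Control. All 6 were called higher in NoBAL than in Control and lower in hiHepD8 than in NoBAL, against 25.2% and 24.8% of all genes. In Control replicate 2, 1 of the 6 was at 0. Their part in the ribosome biogenesis result was not tested.

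Cell type markers differed too. Hepatocyte markers (8 of 8 found) summed to 27410 and 27260 FPKM in hiHepD8, 24890 FPKM in hiHepD4, 3729 and 6623 FPKM in EmptyBAL, 13800 and 12500 FPKM in NoBAL, and 78970, 76670 and 78610 FPKM in Control. Macrophage markers (8 of 9 found) summed to 384.5 and 386.3 FPKM in hiHepD8, 235.3 FPKM in hiHepD4, 754.4 and 1073 FPKM in EmptyBAL, 122.3 and 118.1 FPKM in NoBAL, and 423.7, 452.5 and 418.9 FPKM in Control. Neutrophil markers (4 of 7 found) summed to 1.04 and 1.44 FPKM in hiHepD8, 66.6 FPKM in hiHepD4, 630 and 104 FPKM in EmptyBAL, 234 and 28.0 FPKM in NoBAL, and 2.20, 2.35 and 1.30 FPKM in Control, with 1 or 2 of the 4 at 0 in each hiHepD8 and Control library.

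Stellate cell and fibroblast markers (7 of 7 found) summed to 594.8 and 599.4 FPKM in hiHepD8, 150.8 FPKM in hiHepD4, 787.5 and 560.1 FPKM in EmptyBAL, 906.0 and 623.1 FPKM in NoBAL, and 339.9, 352.9 and 319.1 FPKM in Control. Of these 7, 3 were called higher in NoBAL than in Control, against 25.2% of all genes. In hiHepD8 against NoBAL 2 were called higher and 0 lower, against 22.5% and 24.8% of all genes. Endothelial markers (5 of 6 found) ranged over 102.5 to 103.5 FPKM in hiHepD8, 48.63 to 144.3 FPKM in EmptyBAL, 67.56 to 108.7 FPKM in NoBAL and 44.08 to 46.05 FPKM in Control, with hiHepD4 at 42.26 FPKM. Both sums were higher in every NoBAL library than in any Control library, though 1 of 5 endothelial genes was called higher. Cholangiocyte markers (4 of 5 found) ranged over 27.61 to 28.98 FPKM in hiHepD8, 97.12 to 119.9 FPKM in EmptyBAL, 17.69 to 28.65 FPKM in NoBAL and 12.14 to 13.07 FPKM in Control, with hiHepD4 at 16.26 FPKM. T and NK cell markers (6 of 8 found) ranged over 18.41 to 18.67 FPKM in hiHepD8, 39.31 to 66.16 FPKM in EmptyBAL, 6.589 to 8.648 FPKM in NoBAL and 16.05 to 18.77 FPKM in Control, with hiHepD4 at 13.96 FPKM. B and plasma cell markers (6 of 6 found) ranged over 38.29 to 40.13 FPKM in hiHepD8, 76.03 to 101.3 FPKM in EmptyBAL, 31.74 to 57.48 FPKM in NoBAL and 36.26 to 39.87 FPKM in Control, with hiHepD4 at 35.01 FPKM. Both lymphocyte sums were highest in EmptyBAL. Of 5 tested T and NK cell genes, 2 were called higher and 1 lower in EmptyBAL than in Control, with a median log2 change of -0.004. Of 4 tested B and plasma cell genes, 2 were called higher and 0 lower, with a median of 0.59. Over all genes 24.4% were called higher and 29.3% lower in that comparison. The part of these cell types, and of hepatocytes, macrophages and neutrophils, in the results was not tested.

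**Figure D5:**
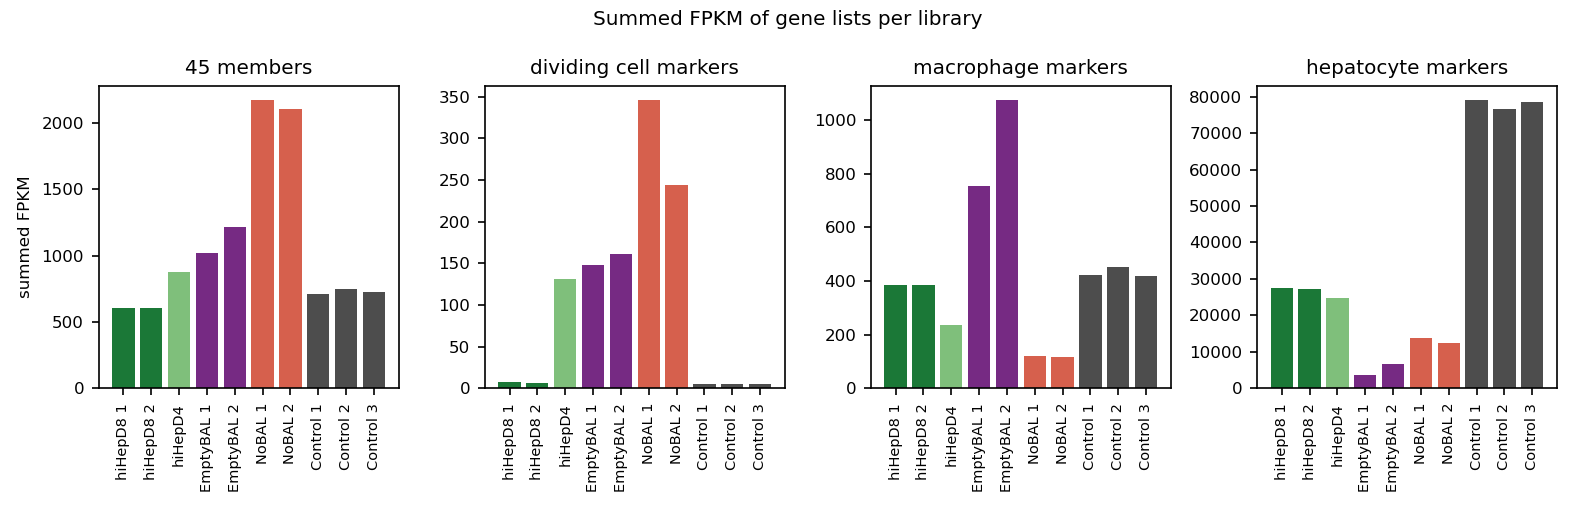
Summed FPKM per library (bars, each axis from 0) of the 45 genes and of dividing cell, macrophage and hepatocyte markers. The 45 genes and the dividing cell markers are both highest in NoBAL, at 2172 and 2109 FPKM and at 346 and 244 FPKM, whereas macrophage markers are highest in EmptyBAL and hepatocyte markers in Control.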

How the data were processed

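A deposited table held the authors' FPKM, a level that corrects for gene length and library size. The file does not name its unit, which was taken from its values and the tools. HISAT2, Cufflinks and HTSeq are named in the submitters' processing notes with no roles, beside pig build Sscrofa11.1 and mouse build mm10. Per the labels' protocols, TruSeq libraries of total RNA were sequenced as paired ends. FPKM are relative, so a rise of abundant genes lowers the rest.

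Values were tested as log2(FPKM + 1) in limma 3.58.1 (R 4.3.3), which understates changes of low genes. Genes had to reach 1 FPKM in 2 or more libraries, which kept 12180, and were fitted with a mean for each of 5 groups over 10 libraries (mean-variance trend; 5 residual and 2.73 prior degrees of freedom). Tests were two-sided, with Benjamini-Hochberg adjustment over all 12180 genes and calls at 0.05. The script was tested on simulated data. No label says that replicates are separate animals, so p-values reflect spread between libraries that could be technical. Errors of log2 changes are standard errors. Whole reads could not be recovered: a single ratio held for 76 of 3273 low genes between Control libraries 1 and 3, so no counting intervals are given, and replicates shared no identical tables.

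The genes and lists were chosen with earlier results of these data known. Every gene of the set could be named. Values per library were given for the 10 largest called changes in NoBAL against Control, hiHepD8 against NoBAL and hiHepD8 against EmptyBAL, for genes not called in the first, and for 1 or more of each role. Other pathway genes came from the 3 largest called changes per list and direction. Coordinates are those of RefSeq on Sscrofa11.1, matched by symbol for 45 of 45 genes. Alternatives covered pseudocount, filter, scaling, trend, weights, groups fitted, a replicate block and left-out libraries; scaling to equal sums was added after seeing the data. Plots were drawn with matplotlib 3.10.9 under Python 3.11.15, from tables made in pandas 2.3.3.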

Additional observations from a re-analysis of the deposited data

How the results depend on the processing

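Of the 45 genes, 38 were called in NoBAL against Control and 42 in hiHepD8 against NoBAL, and these counts stayed within 1.5 times under every alternative except the averaging given below. Without 1 library at a time they ranged from 33 to 37 and from 34 to 41. The same range was 14 to 24 for EmptyBAL against Control, 0 to 4 for hiHepD8 against Control, 12 to 26 for hiHepD8 against EmptyBAL and 26 to 38 for EmptyBAL against NoBAL. Where this left 1 library in a group, it was assumed to vary like the others. Over all genes the ranges were 4629 to 5534 for NoBAL against Control, 5181 to 7652 for EmptyBAL against Control, 1723 to 2637 for hiHepD8 against Control, 3418 to 5393 for hiHepD8 against NoBAL, 2423 to 6798 for hiHepD8 against EmptyBAL and 3081 to 6679 for EmptyBAL against NoBAL. Averaging Control and hiHepD8 each to 1 library, which leaves fewer residual degrees of freedom, gave 3 of the 45 genes and 419 of all genes in NoBAL against Control, 1 and 692 in EmptyBAL against Control, and 3 and 299 in hiHepD8 against NoBAL. It gave 0 and 17 in hiHepD8 against Control, 0 and 34 in hiHepD8 against EmptyBAL, and 0 and 0 in EmptyBAL against NoBAL. At an unadjusted p under 0.05 in limma, those 3 comparisons had 0, 11 and 17 of the 45, and the last had 2657 of all genes.

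Array weights per group gave 11 of the 45 and 3663 of all genes in EmptyBAL against Control, 29 and 8868 in hiHepD8 against Control, 13 and 2595 in hiHepD8 against EmptyBAL, and 0 and 315 in EmptyBAL against NoBAL, where 23 of the 45 passed an unadjusted p of 0.05 in limma. Fitting only the 2 groups compared gave 29 and 8384 in hiHepD8 against Control, 11 and 2353 in hiHepD8 against EmptyBAL, and 0 and 0 in EmptyBAL against NoBAL, with 16 and 2659 unadjusted. Upper-quartile scaling gave 5 of the 45 in hiHepD8 against Control and 5 in EmptyBAL against NoBAL, and equal sums gave 3 and 2. Equal sums also reversed POLR1A (0.28) and NOB1 (0.71) in EmptyBAL against Control and NOP56 (0.037) in hiHepD8 against Control. The causes were not tested.

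Scaling moved the median of all genes by 0.32 (upper quartile) and 0.67 (equal sums) in EmptyBAL against Control, by 0.15 and 0.48 in hiHepD8 against Control, by 0.24 and 0.17 in hiHepD8 against NoBAL, by -0.17 and -0.20 in hiHepD8 against EmptyBAL and by 0.39 and 0.36 in EmptyBAL against NoBAL. Equal sums moved it by 0.29 in NoBAL against Control. The share of calls over all genes that were higher was 51.0% as deposited and 66.6% under equal sums in NoBAL against Control, 45.4% and 77.4% in EmptyBAL against Control, 46.9% and 78.9% in hiHepD8 against Control, 47.5% and 58.7% in hiHepD8 against NoBAL, 56.2% and 38.6% in hiHepD8 against EmptyBAL, and 37.0% and 84.6% in EmptyBAL against NoBAL. Median-of-ratios scaling gave 48.1% in the last. Upper-quartile scaling gave 64.7% in EmptyBAL against Control, 61.3% in hiHepD8 against Control, 64.0% in hiHepD8 against NoBAL, 42.5% in hiHepD8 against EmptyBAL and 84.0% in EmptyBAL against NoBAL.

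For hiHepD4, the genes past 2-fold numbered 1 against Control with a pseudocount of 5 and 34 against NoBAL under equal sums. Against EmptyBAL they numbered 7 and 2 with pseudocounts of 0.1 and 5, and 11, 8 and 19 under upper-quartile, median-of-ratios and equal-sum scaling. Between hiHepD8 and hiHepD4 they numbered 2 with a pseudocount of 5 and 2 under equal sums. Same-numbered replicates did not pair (correlations of deviations from -0.089 to 0.137), and a replicate block gave 2 of the 45 and 2341 of all genes in hiHepD8 against Control and 2502 of all genes in EmptyBAL against NoBAL. With depth unknown, no limit of detection is given for low genes such as UTP20.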
